A study of Mus musculus with 36 samples.

Results

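The RNA levels of 10 splicing kinases and SR proteins were followed in mouse cortical neurons after stimulation with BDNF (brain-derived neurotrophic factor, a secreted ligand of the receptor kinase TrkB) or with KCl, which depolarises the membrane. The 10 genes are the kinases Clk1, Clk2 and Clk4, the SR proteins Srsf2, Srsf3, Srsf5, Srsf6 and Srsf7, and the SR-like proteins Tra2a and Tra2b. They were taken as a named list, matched by Ensembl identifier, and each of the 10 was found among the 26709 genes of the RNA table and passed the filter on low values that 16209 genes passed. Their open-chromatin peaks were read from an ATAC-seq table of 58177 peaks, in which each gene had exactly 1 peak, at an annotated start site, 10 peaks in all.

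Neurons came from pooled cortices of CD-1 embryos at embryonic day 15 and were cultured for 7 days. Before any stimulus every culture, controls included, spent 2 h in AP-5 (100 µM) and TTX (1 µM), which block NMDA receptors and voltage-gated sodium channels. Stimulated cultures then received 10 ng/ml BDNF or 55 mM KCl for 1, 6 or 10 h, while controls were kept in AP-5 and TTX for 3, 8 or 12 h in all. The sources do not say whether the blockers stayed on during a stimulus, and KCl was added as a buffer for which no buffer-only group is present. RNA-seq and ATAC-seq each gave 18 libraries, 2 for each of 9 groups, and the 6 controls of an assay were taken as 1 group. Nothing in the labels ties a replicate to its own dissection, so p-values measure the spread between these cultures, which may be partly technical. For RNA each gene had 1 spread, estimated over all 18 libraries together. A gene thus has the same standard error (SE) in every comparison with controls, also where the 2 libraries of a group lie far apart. With 1 library of a stimulated group left out, that group has n = 1 and its own spread is not measured.

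SR proteins bind pre-mRNA through RNA-recognition motifs and recruit the spliceosome through a tail rich in arginine and serine. Kinases of the CLK family phosphorylate those tails in the nucleus, which releases SR proteins from nuclear speckles and sets their activity. Many of these genes also regulate themselves, since a poison exon or a retained intron can divert their own transcripts to decay or hold them in the nucleus. The annotation (GENCODE M21, build GRCm38) lists a transcript marked for nonsense-mediated decay and a retained-intron transcript for 10 of the 10 genes, against 23.9% and 49.1% of the 18044 protein-coding genes in the table. The deposited values sum all transcripts of a gene, so productive and unproductive forms cannot be told apart here.

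Promoter sequences show what surrounds the start sites whose accessibility is described further on. RefSeq promoters of 300 bases (250 before and 50 from the start, GRCm38.p6) were found for 9 of the 10 genes, all but Clk1, and each of the 9 overlapped an ATAC peak. The full cAMP-response element TGACGTCA, the site bound by CREB, was present in 2 of the 9, Clk4 and Tra2a, and in 1.79% of the 32851 promoters in the table (3.45% of the 13445 that overlap a peak). Its shorter core TGACG, read on both strands and also found on each strand of a full element, was present in 8 of the 9, all but Srsf7, and in 20.8% of all promoters (32.5% of those that overlap a peak). TGAGTCA, the AP-1 site, was in 0 of the 9 and in 5.2% of all promoters (3% of those that overlap a peak). GCGTGGGCG, an EGR site, was in 0 of the 9 and in 0.612% of all promoters (1.24% of those that overlap a peak). The GC content of the 9 was 56.0 to 70.0%, against medians of 52.7% for all promoters and 62.3% for those in a peak. A match to these letters is not evidence of binding. Shown here are the 2 promoters with the full element, that of Srsf5, which was called in opposite directions with BDNF and KCl at 1 h, and that of Srsf3, which holds 3 TGACG sites. Each is written in the direction of transcription, with TGACG on either strand in capitals.
Clk4 (chr11:51262864-51263163, plus strand): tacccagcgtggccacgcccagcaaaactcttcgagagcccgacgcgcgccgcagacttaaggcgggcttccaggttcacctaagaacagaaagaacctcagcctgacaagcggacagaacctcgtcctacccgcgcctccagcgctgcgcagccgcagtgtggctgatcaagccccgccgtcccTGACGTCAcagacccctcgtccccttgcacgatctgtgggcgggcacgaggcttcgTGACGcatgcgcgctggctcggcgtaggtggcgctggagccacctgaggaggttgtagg
Tra2a (chr6:49264003-49264302, minus strand): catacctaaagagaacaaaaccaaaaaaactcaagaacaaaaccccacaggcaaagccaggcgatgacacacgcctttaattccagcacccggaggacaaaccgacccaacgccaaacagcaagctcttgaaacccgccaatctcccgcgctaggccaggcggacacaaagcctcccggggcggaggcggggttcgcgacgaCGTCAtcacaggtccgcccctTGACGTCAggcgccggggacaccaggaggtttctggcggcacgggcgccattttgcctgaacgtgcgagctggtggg
Srsf5 (chr12:80945249-80945548, plus strand): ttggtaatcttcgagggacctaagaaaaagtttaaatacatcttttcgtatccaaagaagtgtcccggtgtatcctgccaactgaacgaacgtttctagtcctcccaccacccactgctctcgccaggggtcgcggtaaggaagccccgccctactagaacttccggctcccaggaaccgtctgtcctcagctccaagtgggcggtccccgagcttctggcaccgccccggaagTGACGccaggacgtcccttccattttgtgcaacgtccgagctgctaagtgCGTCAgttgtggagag
Srsf3 (chr17:29032410-29032709, plus strand): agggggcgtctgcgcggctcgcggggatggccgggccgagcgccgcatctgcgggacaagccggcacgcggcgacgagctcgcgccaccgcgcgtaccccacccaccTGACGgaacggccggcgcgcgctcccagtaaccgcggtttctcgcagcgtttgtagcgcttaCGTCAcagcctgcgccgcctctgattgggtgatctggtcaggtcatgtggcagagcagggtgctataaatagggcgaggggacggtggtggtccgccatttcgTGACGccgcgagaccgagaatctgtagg
The full element began 65 bases before the start in Clk4 and 27 bases before it in Tra2a. A TGACG match began 16 bases before the start in Srsf5 and 143 and 81 bases before it in Srsf3.

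RNA libraries held 8.51 M to 36.7 M reads and ATAC libraries 1.24 M to 6.24 M reads in peaks, the lowest being library B of KCl at 6 h. RNA replicates of a group correlated at 0.985 (KCl 6 h) to 0.994 over all genes on the log2 scale. All 9 neuronal markers were present, with Map2 at 23810 normalised read counts in controls, and the cultures also held RNA of other cells. The 7 markers of astrocytes and radial glia summed to 18560 to 21240 in controls and 14590 to 17030 in KCl at 6 h, and the 3 markers of dividing cells to 3619 to 6126 and 2540 to 2749. With BDNF at 6 h these sums were 17620 to 17900 and 3164 to 3462, also below the control ranges. With KCl at 10 h they were 15590 to 16300 and 2473 to 2725, below these ranges too. With BDNF at 10 h the markers of dividing cells summed to 3300 to 3382, below controls, while those of astrocytes and radial glia overlapped them. The 6 markers of the oligodendrocyte lineage summed to 5954 to 6371 in controls, 4493 to 5048 in KCl at 1 h, 6911 to 7247 in KCl at 6 h and 5592 to 5697 in BDNF at 6 h, when Clk1 and Tra2a were lower. In KCl at 10 h they summed to 6588 to 7246, above every control, when Srsf3, Srsf7, Tra2a and Tra2b were lower. The 5 microglial markers summed to at most 187.1 in any library, and of 3 vascular markers the endothelial Cldn5 was near 0 (a mean of 0.163 in controls). In bulk RNA fewer cells of a type and less RNA per cell cannot be told apart, and the part of these cells in the results below was not tested.

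Between controls of different times these genes differed by at most 0.139 log2 (6 h against 1 h) and 0.08 (10 h against 1 h). Between controls of 6 h and 1 h, and of 10 h and 1 h, limma called 0% of the 16209 genes (164 and 181 genes had an unadjusted p below 0.05), and edgeR and DESeq2 also called 0. None of the 10 genes had an unadjusted p below 0.05 by any of these tools, and the smallest by limma was 0.224. Per kilobase of annotated exon, the mean control level was highest for Srsf5 (1160 ± 37.8 normalised read counts per kilobase, SD, n = 6), Srsf2 (1090 ± 52.8) and Srsf6 (981 ± 26.7), of which Srsf5 and Srsf2 differed by less than the sum of their SDs, followed by Srsf7 (664 ± 5.73) and Srsf3 (510 ± 16.2). Tra2a (258 ± 12.6) and Clk1 (252 ± 7.62) came next and also differed by less than the sum of their SDs, as did Clk4 (181 ± 8.08) and Tra2b (168 ± 6.45). Clk2 was lowest (123 ± 10.2). The kinases lay below the 5 SR proteins on this scale, and the order within the top 3, of Srsf3 and Srsf7 and of Clk4 and Tra2b, changed when the longest transcript was used as the length.

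**Figure D1:**
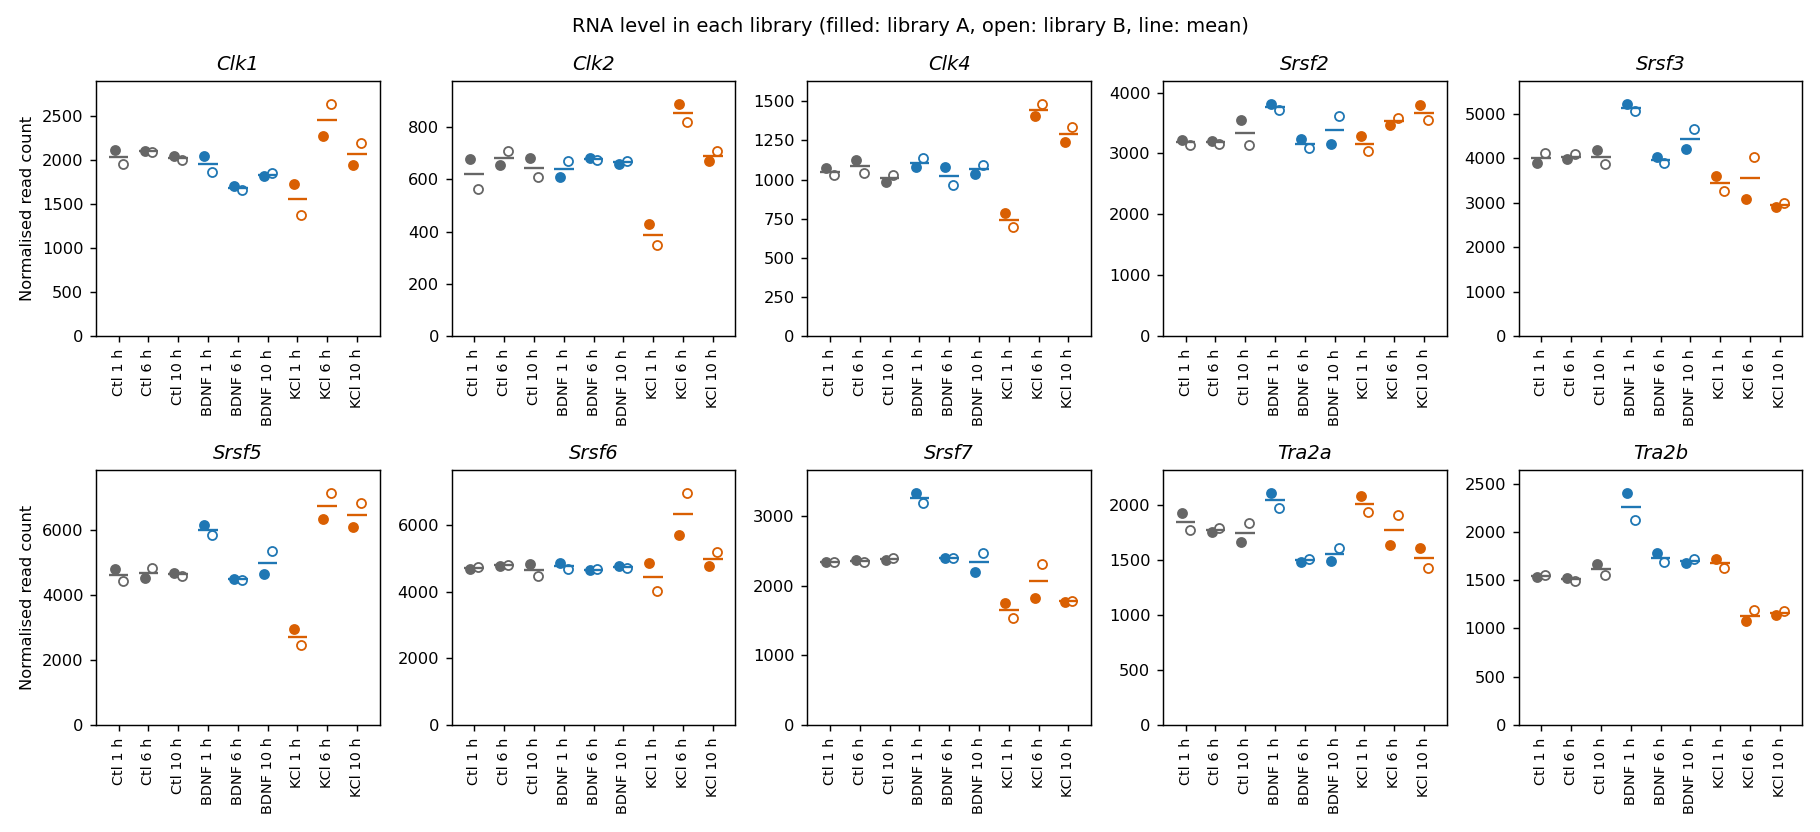
Normalised read counts (vertical axis, from 0) of the 10 genes in each of the 18 RNA libraries, by stimulus and hours. Filled points are library A, open points library B and lines the mean of 2. After KCl, Srsf5, Clk2 and Clk4 dropped below all controls at 1 h and stood above them at 6 h, while Srsf7 and Tra2b were highest with BDNF at 1 h and Tra2b was lowest with KCl at 6 and 10 h.

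Within 1 h BDNF raised 6 of the 10 genes and KCl lowered 6, of which 3 were the same genes. With BDNF, 6 of the 10 genes were higher than controls and 0 lower (median log2 difference 0.205), and with KCl 1 was higher and 6 were lower (median -0.321), at an adjusted p below 0.1 by limma on log2(value + 1). The median over all genes was within 0.0248 of 0 in every comparison. Stimulation moved a large part of all genes, and the counts have to be read against that: 40.4% of all genes were called with BDNF at 1 h and 54.7% with KCl at 1 h. In one direction, 21.3% of all genes were called higher with BDNF and 28.2% lower with KCl. The 3 genes called in opposite directions were Srsf3, Srsf5 and Srsf7. Tra2a was called higher with both stimuli, Clk1, Clk2 and Clk4 were called with KCl alone, Srsf2 and Tra2b with BDNF alone and Srsf6 with neither.

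At 6 h with KCl, 6 of the 10 genes were higher and 3 lower than controls (median 0.19, 66.5% of all genes called), and at 10 h 3 were higher and 4 lower (median 0.0398, 57.2% called). The 4 genes called lower at 1 h and higher at 6 h were Srsf5, Clk1, Clk2 and Clk4, and Srsf3 and Srsf7 were called lower at both times. With BDNF the differences were mostly gone at 6 h, with 1 gene higher and 2 lower (median -0.0291, 43.3% of all genes called), and at 10 h, with 0 higher and 1 lower (median 0.0314, 40.6% called). The share of the 10 genes called was above that of all genes with BDNF at 1 h and at each time of KCl, and below it with BDNF at 6 and 10 h. Whether these shares differ from the background was not tested.

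**Figure D2:**
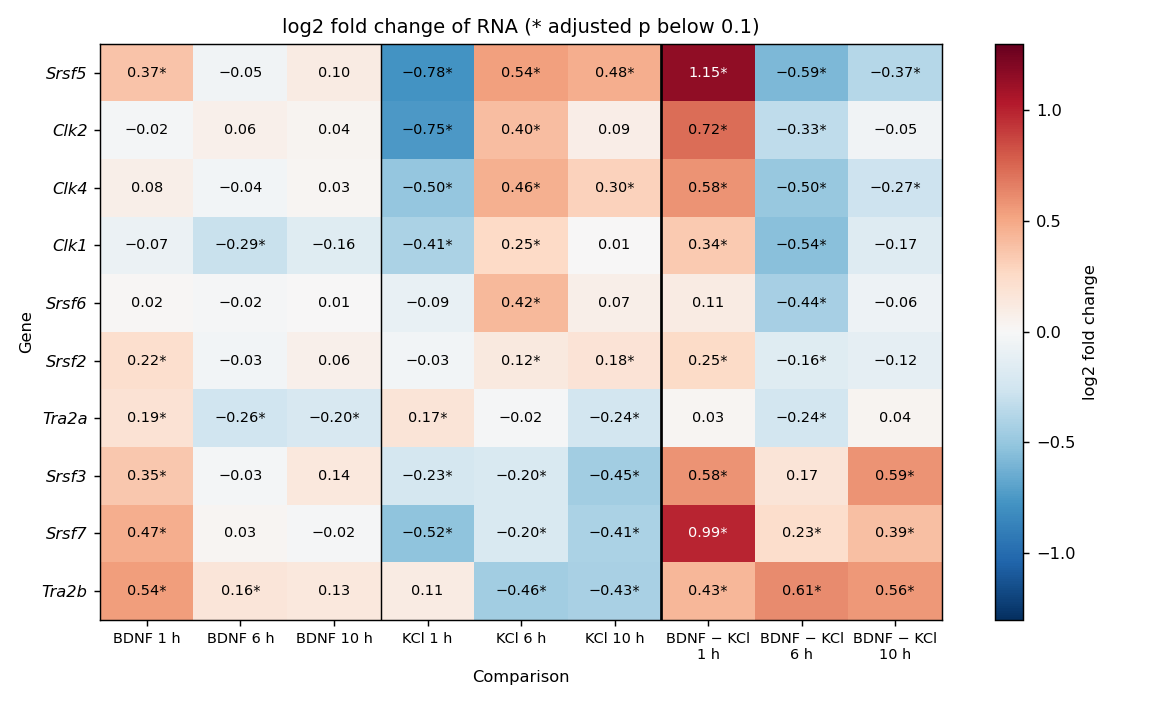
Log2 fold changes of RNA for the 10 genes (rows) in 9 comparisons (columns), with BDNF or KCl against the 6 controls at left and centre and BDNF minus KCl at right. Red is higher, blue is lower, and an asterisk marks an adjusted p below 0.1. Srsf5, Clk2, Clk4 and Clk1 turn from blue to red between KCl 1 h and 6 h, and Srsf3, Srsf7 and Tra2b are red with BDNF at 1 h and blue with KCl at 10 h.

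The 3 kinases fell together after 1 h of KCl. Clk2 stood at 563.8 to 709.3 normalised read counts in the 6 controls (median 667.1) and at 428 and 348 in the KCl libraries at 1 h, both below every control. Its log2 fold change was -0.75 ± 0.087 (SE, adjusted p 3.4e-07), a level 0.596 times that of controls. At 6 h of KCl it was at 888 and 819.6, both above every control (log2 0.40 ± 0.087, adjusted p 0.000486). At 10 h it was at 669 and 707, inside the control range and not called. In BDNF its 6 libraries lay between 608 and 680.1, also inside that range, and it was called at no time.

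Clk4, a close relative of Clk1, followed the same course. Controls lay between 985.3 and 1124 (median 1039), and KCl at 1 h gave 785 and 699, below all of them. The log2 fold change was -0.50 ± 0.068 (adjusted p 2.89e-06). At 6 h the libraries held 1404 and 1482 and at 10 h 1241 and 1339, all above every control, with log2 fold changes of 0.46 ± 0.068 (adjusted p 4.97e-06) and 0.30 ± 0.068 (adjusted p 0.000947). Of the 3 kinases it was the one still called at 10 h. BDNF left its 6 libraries between 966 and 1135, and it was called at no time.

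Clk1, which phosphorylates SR proteins in speckles, was the 1 kinase of the 3 that also fell with BDNF. Controls held 1956 to 2112 (median 2064), KCl at 1 h 1725 and 1378, KCl at 6 h 2273 and 2630 and KCl at 10 h 1936 and 2188. The log2 fold changes were -0.41 ± 0.076 at 1 h (adjusted p 0.000125) and 0.25 ± 0.076 at 6 h (adjusted p 0.00638), and the groups at 10 h overlapped. Without library B of its group the fall at 1 h was -0.25 and still called, and the rise at 6 h was 0.15 and no longer called. The summed markers of the oligodendrocyte lineage were also lower in KCl at 1 h and higher at 6 h than in controls, and their part in the course of the kinases and of Srsf5 was not tested. The BDNF libraries held 2045 and 1857 at 1 h, 1699 and 1655 after 6 h and 1811 and 1855 after 10 h. The value at 6 h lay below every control (log2 -0.29 ± 0.076, adjusted p 0.0051), and that at 10 h did too but was not called (-0.16 ± 0.076, adjusted p 0.111).

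Srsf5, an SR protein that promotes inclusion of exons, fell and then rose after KCl. Its change at 1 h differed from that of Clk2, and its change at 10 h from the size of that of Srsf3, by less than 1 SE. Controls lay between 4427 and 4805 (median 4622), and KCl gave 2954 and 2456 at 1 h, 6319 and 7125 after 6 h and 6072 and 6810 after 10 h. It was below every control at 1 h and above every control afterwards. The log2 fold changes were -0.78 ± 0.072 (adjusted p 9.34e-09), 0.54 ± 0.072 (adjusted p 1.38e-06) and 0.48 ± 0.072 (adjusted p 1.17e-05). BDNF gave 6145 and 5839 at 1 h, above every control (log2 0.37 ± 0.072, adjusted p 0.000309). At 6 h it was back at 4488 and 4445, and at 10 h at 4632 and 5329, and neither was called.

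Srsf6 was called in 1 of the 6 comparisons with controls. Controls held 4481 to 4828 (median 4758), and KCl at 6 h gave 5711 and 6963, a log2 fold change of 0.42 ± 0.071 (adjusted p 2.87e-05), which was 0.28 and still called without library B. The other KCl libraries held 4863 and 4021 at 1 h, with 4757 and 5175 after 10 h. The 6 BDNF libraries lay between 4647 and 4863. The libraries at KCl 1 h stood on both sides of the control range, and without library A the value of -0.23 was called lower (adjusted p 0.0378).

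Srsf2, an SR protein that also takes part in transcript elongation, rose modestly with both stimuli. Controls held 3140.4 to 3548 (median 3183). BDNF at 1 h gave 3809 and 3713, above every control (log2 0.22 ± 0.063, adjusted p 0.0105), a call lost without library A (adjusted p 0.125). The KCl libraries held 3283 and 3037 at 1 h, 3473 and 3582 after 6 h and 3789 and 3557 after 10 h, with calls at 6 h (0.12 ± 0.063, adjusted p 0.0931) and 10 h (0.18 ± 0.063, adjusted p 0.02). The call at 6 h was lost without any of 7 of the 8 libraries left out in turn, those of KCl at 6 h and 5 of the 6 controls, and the groups overlapped. The call at 10 h was lost without library A of that group (0.14). Against controls of the same time neither KCl call held (adjusted p 0.14 at 6 h and 0.199 at 10 h). Exons of Srsf2 overlap those of Mettl23 by 460 bases and those of Mfsd11 by 288 bases on the other strand, and 18.5% of its 75-base windows (the length of a read) also occur in their transcripts. The sources do not say that counting used strand, so reads of these genes cannot be told apart.

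Srsf3 and Srsf7, closely related SR proteins that also act in export of mRNA, rose with BDNF and fell with KCl. For Srsf7, controls were tightly grouped between 2335 and 2390 (median 2353). BDNF at 1 h gave 3332 and 3187 and KCl at 1 h 1752 and 1535, on opposite sides of the controls. The log2 fold changes were 0.47 ± 0.072 (adjusted p 2.34e-05) and -0.52 ± 0.072 (adjusted p 2.99e-06). KCl gave 1828 and 2304 at 6 h (-0.20 ± 0.072, adjusted p 0.0199) and 1767 and 1783 at 10 h (-0.41 ± 0.072, adjusted p 6.74e-05). The call at 6 h rested on library A: without it the value was -0.033 and was not called. The 4 BDNF libraries of 6 and 10 h lay between 2202 and 2463 and were not called.

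For Srsf3, controls held 3881 to 4198 (median 4041), BDNF at 1 h 5219 and 5069, KCl at 1 h 3598 and 3274, KCl at 6 h 3074 and 4027 and KCl at 10 h 2897 and 2987. All BDNF libraries of 1 h were above, and all KCl libraries of 1 and 10 h below, every control. The log2 fold changes were 0.35 ± 0.075 (adjusted p 0.000798), -0.23 ± 0.075 (adjusted p 0.0136), -0.20 ± 0.075 (adjusted p 0.0276) and -0.45 ± 0.075 (adjusted p 3.18e-05). The call at KCl 6 h, where the groups overlapped, was lost without library A (-0.00075), and that at KCl 1 h without library B (-0.16). BDNF gave 4024 and 3894 at 6 h and 4205 and 4657 at 10 h, neither called.

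Tra2b and Tra2a are paralogs that bind GAA-rich exonic enhancers. Both were called lower with KCl at 10 h, and they were called in opposite directions with BDNF at 6 h. Tra2b held 1494 to 1668 in controls (median 1544) and rose with BDNF at 1 h to 2407 and 2121, the largest rise with BDNF among the 10 (log2 0.54 ± 0.064, adjusted p 7.93e-07). At 6 h of BDNF it was at 1784 and 1688, called higher (0.16 ± 0.064, adjusted p 0.0575) but not without either library of that group, and at 10 h at 1684 and 1725.5 (0.13 ± 0.064, adjusted p 0.116). With KCl it was at 1724 and 1633 at 1 h, not called (0.11 ± 0.064). Library A of the 10 h controls held the highest control value, and without it the values of 0.15 with BDNF at 10 h and 0.13 with KCl at 1 h were called. It then dropped to 1073 and 1196 at 6 h (-0.46 ± 0.064, adjusted p 2.59e-06) and 1138 and 1176 at 10 h (-0.43 ± 0.064, adjusted p 1.11e-05), below every control.

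Tra2a held 1663 to 1926 in controls (median 1781). It stood above every control at 1 h with either stimulus, at 2112 and 1978 with BDNF (log2 0.19 ± 0.070, adjusted p 0.0391) and at 2081 and 1936 with KCl (0.17 ± 0.070, adjusted p 0.0557). It stood below every control with BDNF at 6 h, at 1485 and 1511 (-0.26 ± 0.070, adjusted p 0.00688), and at 10 h, at 1495 and 1613.5 (-0.20 ± 0.070, adjusted p 0.0305). KCl gave 1634 and 1909 at 6 h, not called, and 1607 and 1428 at 10 h (-0.24 ± 0.070, adjusted p 0.00717). Against controls of the same time the calls with BDNF at 1 h (adjusted p 0.292), KCl at 1 h (0.332) and BDNF at 10 h (0.205) were lost. They were also lost without library A of the stimulated group (0.14, 0.11 and -0.15), and the call with KCl at 10 h was lost without library B (-0.15).

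**Figure D3:**
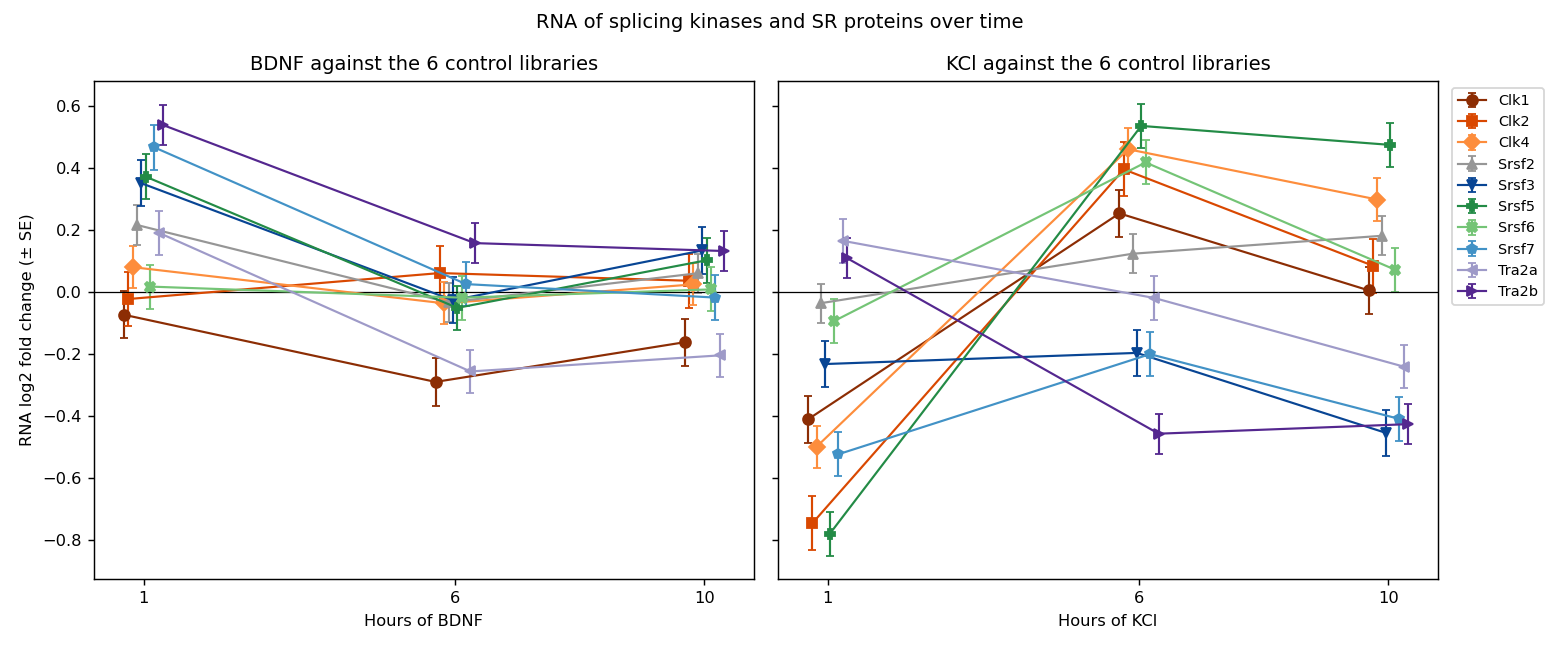
RNA log2 fold change against the 6 controls (vertical axis, ± SE) of the 10 genes after 1, 6 and 10 h of BDNF (left) or KCl (right), with points offset sideways for clarity. With BDNF the 6 called genes are above 0 at 1 h and most values return near 0 at 6 h, and with KCl the kinases and Srsf5 cross from below 0 to above 0 while Srsf3, Srsf7 and Tra2b are below 0 at 6 and 10 h.

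Several of these genes have near-identical copies elsewhere in the genome whose counts are listed as separate genes. Windows of 75 bases from Srsf3 transcripts also occur in Gm12355 (named Srsf3-ps in RefSeq, a pseudogene) and Gm9761, those from Srsf5 in Gm12966, and those from Tra2b in Gm10254, Gm14639 and Gm11957 among others. Between 5.53% and 7.64% of the windows of these 3 genes were shared with another gene, and none of the windows of Clk1, Clk2, Clk4, Srsf6, Srsf7 and Tra2a. The counts listed for the copies are not small. In controls, Gm12966 held 1937 ± 53.2 normalised read counts (SD, n = 6), 41.9% of the value of Srsf5, Gm10254 held 653.6 ± 33.5, 42% of Tra2b, and Gm12355 and Gm9761 held 20.2% and 17.5% of Srsf3. How reads that map to several places were counted is not given in the sources used here, so the levels of Srsf3, Srsf5 and Tra2b are uncertain. At KCl 1 h, where Srsf3 was called lower, Gm12355 was not called (0.000503), and Gm11957, at 14.94 ± 3.7 in controls, was called in no comparison. Gm12966 had log2 fold changes of 0.652 with BDNF at 1 h, -0.432 with KCl at 1 h and 0.444 with KCl at 6 h, and Gm10254 of 0.527 with BDNF at 1 h and -0.447 with KCl at 6 h, all called. With the counts of the copies added to the parent, a choice made after the data were seen, the change of Srsf5 at KCl 1 h was -0.668 and that of Tra2b at KCl 6 h was -0.454, both called. The fall of Srsf3 at KCl 1 h became -0.142 and was no longer called (adjusted p 0.114). The values of Srsf3 and Tra2b with BDNF at 10 h became 0.187 and 0.172 and were called higher (adjusted p 0.0533 and 0.0255), so that 2 genes rather than 0 were called higher at that time. Srsf3 was then also called higher with BDNF than with KCl at 6 h (0.222, adjusted p 0.0426).

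The 2 stimuli were also compared directly, which uses no control. At 1 h, 8 of the 10 genes were higher with BDNF than with KCl and 0 lower (42.8% of all genes called, 24.6% of all genes higher). The difference was largest for Srsf5, at 6145 and 5839 with BDNF against 2954 and 2456 with KCl, a ratio of 2.22 (log2 1.15 ± 0.088, adjusted p 1.03e-09). Srsf7 followed (0.99 ± 0.088, adjusted p 9.77e-09), then Clk2 (0.72 ± 0.107), Srsf3 (0.58 ± 0.091), Clk4 (0.58 ± 0.083), Tra2b (0.43 ± 0.078), Clk1 (0.34 ± 0.093) and Srsf2 (0.25 ± 0.077). Srsf6 (0.11 ± 0.087) and Tra2a (0.026 ± 0.086) were not called. The 8 called genes had no overlap between the libraries of the stimuli. The share of all genes without overlap was not counted, so this adds no support to the calls. Without library B of KCl at 1 h the calls of Clk1 (0.18) and Srsf2 (0.20) were lost.

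At 6 h the order had turned for most genes, with 2 higher and 7 lower with BDNF than with KCl (57.3% of all genes called). Lower with BDNF were Srsf5 (-0.59 ± 0.088), Clk1 (-0.54 ± 0.093), Clk4 (-0.50 ± 0.083), Srsf6 (-0.44 ± 0.087), Clk2 (-0.33 ± 0.107), Tra2a (-0.24 ± 0.086) and Srsf2 (-0.16 ± 0.077). Higher with BDNF were Tra2b (0.615 ± 0.078) and Srsf7 (0.23 ± 0.088). The call of Srsf2 was lost without any of the 4 libraries, that of Srsf7 without any but library B of KCl (0.059 without library A of KCl), and that of Tra2a without library A of BDNF or B of KCl (-0.12 without the latter). At 10 h 3 genes were higher with BDNF, Srsf3 (0.59 ± 0.091), Tra2b (0.56 ± 0.078) and Srsf7 (0.39 ± 0.088), and 2 were lower, Srsf5 (-0.37 ± 0.088) and Clk4 (-0.27 ± 0.083), with 45.0% of all genes called. The call of Clk4 was lost without library B of KCl (-0.22). Srsf7 and Tra2b were thus higher with BDNF than with KCl at all 3 times. Srsf5, Clk1, Clk2, Clk4 and Srsf2 were higher with BDNF at 1 h and lower at 6 h.

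Changes over time were tested within each stimulus. From 1 to 6 h of KCl, 7 genes rose and 2 fell (59.6% of all genes called). The rises were largest for Srsf5 (log2 1.32 ± 0.088, a ratio of 2.49, adjusted p 1.01e-10), Clk2 (1.14 ± 0.107, adjusted p 1.53e-08) and Clk4 (0.96 ± 0.083, adjusted p 5.12e-09), and the falls were those of Tra2b (-0.57 ± 0.078, adjusted p 3.36e-06) and Tra2a (-0.18 ± 0.086, adjusted p 0.0766). The calls of Srsf2, Srsf7 and Tra2a were lost without single libraries, down to 0.10, 0.16 and -0.072. From 6 to 10 h of KCl 0 rose and 5 fell (22.5% of all genes called), by -0.35 ± 0.087 for Srsf6 (adjusted p 0.0103) and by smaller amounts for Clk2, Srsf3, Clk1 and Tra2a, each of which lost its call without 1 or more single libraries, as did Srsf6. From 1 to 6 h of BDNF 0 rose and 7 fell (33.6% of all genes called), between -0.22 for Clk1 and -0.45 for Tra2a, and the calls of Clk1 and Srsf2 were lost without single libraries. From 6 to 10 h of BDNF 0 of the 10 were called by limma, edgeR and DESeq2, with 0 of the 10 at an unadjusted p below 0.05 by limma, where 0.216% of all genes were called.

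The RNA libraries of a group did not always agree on size. All 10 genes were lower in library B than in library A of KCl at 1 h, and 9 of the 10, all but Clk2, were higher in library B than in library A of KCl at 6 h. The pair at KCl 6 h had the lowest replicate correlation of the 9 groups, and Srsf3, Srsf6 and Srsf7 differed most between its libraries. For Srsf7 the SD was 337 in that pair and 20.4 in the 6 controls, which its shared SE of 0.072 does not show. With 1 library left out at a time, controls included, the main falls and rises kept their sign. At KCl 1 h Srsf5 ranged from -0.91 to -0.65, Clk2 from -0.90 to -0.60 and Clk4 from -0.58 to -0.41. Clk1 ranged from -0.57 to -0.25 and Srsf7 from -0.62 to -0.43. At KCl 6 h Srsf5 ranged from 0.45 to 0.62 and Clk2 from 0.34 to 0.45. Clk4 ranged from 0.42 to 0.50 and Srsf6 from 0.28 to 0.56. A group that lost a library has n = 1, so these ranges hold no replicate spread of that group.

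Across the 18 RNA libraries several pairs of genes had like profiles, given here as a description since the libraries share stimuli. On the log2 scale Clk4 correlated with Srsf5 at 0.944, with Clk2 at 0.89 and with Clk1 at 0.831, and Clk2 with Srsf5 at 0.866. Srsf3 correlated with Srsf7 at 0.907 and with Tra2b at 0.813. Srsf3 with Srsf5 was near 0 (0.0933), and Tra2b ran against Clk4 (-0.53), Srsf6 (-0.505), Clk1 (-0.47) and Clk2 (-0.385). Tra2a and Tra2b correlated at 0.397, the highest value of Tra2a with any of the other genes. Among 11595 genes with a mean of at least 100, the profiles most like that of Clk1 were those of Zfp68 (Pearson 0.956), Cbx1 (0.924), Prkd3 (0.916), Prpf39 (0.909, a factor of the U1 snRNP) and Gm5577 (0.898). Those most like Srsf3 were its own pseudogene copy Gm12355 (0.933), Ak4 (0.924), Pfn2 (0.917), Csnk1a1 (0.91) and Srsf7 (0.907).

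Start-site peaks had larger SEs than the RNA (0.109 against 0.072 for Srsf5 with BDNF at 1 h). Peak changes the size of many called RNA changes could thus be missed. With KCl the RNA of the 10 genes spanned more than their peaks at each time. With BDNF at 6 h the peaks spanned -0.356 to 0.37 and the RNA -0.289 to 0.159. At 10 h of BDNF they spanned -0.672 to 0.0756 and -0.203 to 0.135. Each gene's peak was among the stronger of the table, between the 78.7th percentile (Clk1) and the 97.6th (Srsf2) of mean scaled count. By edgeR with LOESS offsets, 0 of the 10 peaks were called with BDNF at 1 h, with KCl at 1 h or with KCl at 10 h, where 17.3%, 8.36% and 7.91% of all 56383 tested peaks were. In these 3 comparisons 2, 2 and 1 of the 10 had an unadjusted p below 0.05, DESeq2 called 1, 1 and 6, TMM scaling 2, 1 and 5, and limma 0. The peak of Srsf5 held 241.7 and 262.4 scaled counts with BDNF at 1 h and 268.7 and 253.7 with KCl at 1 h, against 240.6 to 292.8 in controls. The RNA of Srsf5 differed 2.22-fold between the same stimuli, while its start-site peak overlapped the controls in all 4 of these libraries.

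The peaks called lower (closing) or higher (gained) than controls were those of Clk4, Clk2 and Srsf2. The Clk4 peak (chr11:51262730-51263552) was closing with BDNF at 6 h, at 154 and 162 scaled counts against 173.1 to 233.9 in controls (log2 -0.356 ± 0.129, adjusted p 0.0708, 10.6% of all peaks called). The Clk2 peak (chr3:89164584-89165175) was closing with BDNF at 10 h, at 47.1 and 77.2 against 85.93 to 116.9 (-0.672 ± 0.218, adjusted p 0.0385, 9.38% called). The Srsf2 peak (chr11:116852340-116854012) was gained with KCl at 6 h, at 348 and 379.8 against 223.8 to 321.2 (0.319 ± 0.112, adjusted p 0.078, 7.54% called). The RNA of Clk4 and Clk2 was not called where their peaks were closing, and that of Srsf2 was called higher at the same 6 h of KCl. The calls of Clk4 and Srsf2 were each lost without 5 of the 8 libraries left out in turn, and that of Clk2 without library A of BDNF at 10 h (-0.40). Against ATAC controls of the same time none of the 3 was called by edgeR, and the Srsf2 value was 0.12 with TMM scaling and 0.078 with DESeq2, neither called.

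Between the stimuli directly, 0 of the 10 peaks were called at 1 h (14.8% of all peaks called) and at 6 h (3.64%), with 1 and 2 at an unadjusted p below 0.05. DESeq2 and limma also called 0 at these times, and TMM scaling 1 at 1 h and 0 at 6 h. At 10 h the Clk2 peak was lower with BDNF (-0.9 ± 0.253, adjusted p 0.0502, 1.99% of all peaks called), a call lost without library A of BDNF (-0.62) or B of KCl (-0.67) and with DESeq2 (adjusted p 0.123). The highest peak difference with KCl at 1 h was that of Srsf3 (0.317 ± 0.14, adjusted p 0.182), whose RNA was lower. Tra2b had a lower peak at the 3 times of KCl (-0.267, -0.296 and -0.294, adjusted p 0.158, 0.178 and 0.153), none of them called by edgeR with LOESS offsets. With TMM scaling they were -0.41, -0.48 and -0.52 and with DESeq2 -0.43, -0.52 and -0.56, all called.

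**Figure D4:**
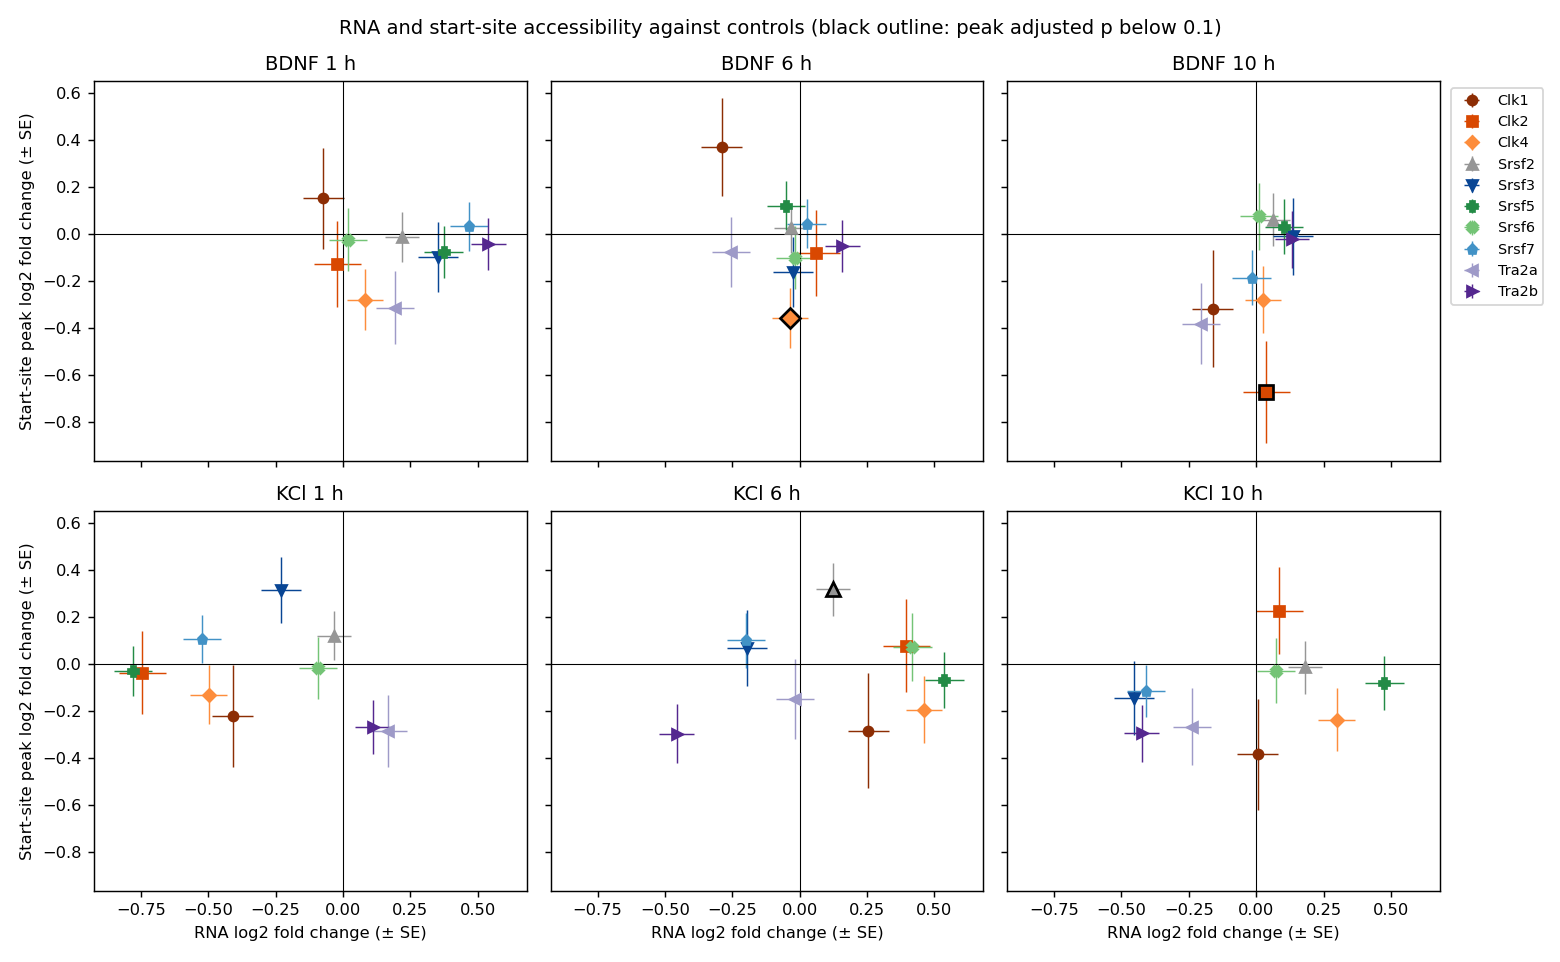
RNA log2 fold change (horizontal axis) and start-site peak log2 fold change (vertical axis) of the 10 genes against controls, both ± SE, in 6 panels by stimulus and hours, with called peaks outlined in black. With KCl the genes spread along the RNA axis from -0.78 to 0.54, while the peak values lie between -0.382 and 0.319. With BDNF at 10 h the peak values spread more, from -0.672 to 0.0756, than the RNA, from -0.203 to 0.135.

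Other genes of the splicing machinery give the surroundings of these changes. Here and below, the counts have to be read against the shares of all genes called higher and lower. These were 26.5% and 28.2% with KCl at 1 h, 33.4% and 33.1% with KCl at 6 h, and 21.3% and 19% with BDNF at 1 h. Whether any list differs from them was not tested. Of 6 other kinases of SR proteins tested, 3 rose and 2 fell with KCl at 1 h and 4 rose and 1 fell at 6 h. Clk3, the remaining member of the CLK family, rose at each time of KCl, from 443.8 ± 18.8 in controls (SD, n = 6) to 665.7 ± 53.9 (n = 2) at 1 h (log2 0.58 ± 0.086, adjusted p 7.54e-06), and by 0.69 at 6 h and 0.64 at 10 h. It thus rose at 1 h of KCl, when Clk1, Clk2 and Clk4 fell, and it was also called higher with BDNF at 1 h (0.24 ± 0.086). Srpk2, a kinase of SR proteins enriched in brain, fell at each time of KCl (-0.26, -0.13 and -0.20). It was also called lower with BDNF at 6 h (-0.26) and 10 h (-0.17). With KCl Dyrk1b was lower at 1 h (-0.36 ± 0.104) and higher at 6 h (1.198 ± 0.104, adjusted p 2.45e-09). With BDNF it was lower at 1, 6 and 10 h (-0.38, -0.68 and -0.79). Dyrk1a was higher with BDNF at 1 h (0.58 ± 0.056, adjusted p 3.14e-08) and with KCl at 1 h (0.29) and 6 h (0.18).

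Of the 6 other SR proteins, 1 rose and 0 fell with KCl at 1 h, while of the 5 Srsf genes followed here Srsf3, Srsf5 and Srsf7 fell and none rose. Srsf1, the founding SR protein, was the one that rose (0.14 ± 0.061, adjusted p 0.0559). At 6 h of KCl 3 of the 6 rose, with Srsf9 highest (0.66 ± 0.088, adjusted p 1.45e-06), and Srsf10, which represses splicing after heat shock, fell (-0.30 ± 0.074, adjusted p 0.00145). Of 16 SR-related and speckle proteins, 5 rose and 8 fell with KCl at 1 h (median -0.145). Luc7l, a U1-associated factor (-0.70 ± 0.058, adjusted p 1.49e-09), and Rsrp1 (-0.70 ± 0.055) fell most, and Srrm2, a scaffold of speckles, rose most (0.49 ± 0.072).

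Of 19 hnRNP proteins tested, a family that often opposes SR proteins, 13 rose and 0 fell with BDNF at 1 h (median 0.198), and 12 rose and 2 fell with KCl at 1 h (median 0.142), while at 6 h of KCl 2 rose and 9 fell (median -0.12). With KCl at 1 h Ptbp1, a repressor of neuronal exons, rose from 984.8 ± 106 to 1784 ± 8.37 (log2 0.86 ± 0.090, adjusted p 6.03e-08) and Ptbp3 fell (-0.85 ± 0.090, adjusted p 8.23e-08). With BDNF at 1 h Hnrnpll rose from 1435 ± 33.9 to 2864 ± 5.18 (log2 1.00 ± 0.064, adjusted p 3.84e-11). Of 18 genes of the spliceosome core, 10 rose and 2 fell with KCl at 1 h and 7 rose and 0 fell with BDNF at 1 h, with U2af1, a 3′ splice-site factor, higher in both (0.69 ± 0.105 and 0.72 ± 0.105).

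Of 19 neuronal and tissue splicing regulators, 8 rose and 4 fell with KCl at 1 h (26.5% and 28.2% of all genes). At 6 h of KCl 6 of them rose and 3 fell (33.4% and 33.1%), and with BDNF at 6 h 1 rose and 11 fell (22.1% and 21.1%). Mbnl2 was the largest rise with KCl at 6 h (1.03 ± 0.101, adjusted p 1.79e-08), and Rbfox1 fell at 10 h (-0.99 ± 0.081, adjusted p 2.13e-09). Of 10 genes of nonsense-mediated decay, the pathway that removes poison-exon transcripts of SR genes, 2 rose and 0 fell with BDNF at 1 h, among them Upf1 (0.91 ± 0.059, adjusted p 4.5e-11), and 4 rose and 3 fell with KCl at 1 h. Of 10 heat shock and stress genes, 8 rose and 0 fell with BDNF at 1 h (median 0.534) and 9 rose and 0 fell with KCl at 1 h (median 0.709). The highest value with KCl at 1 h was that of Atf3 (2.14 ± 0.205, adjusted p 1.69e-08). With BDNF at 1 h Atf3 stood at 3.33 ± 0.205 (adjusted p 2.15e-11). The part of decay or stress in the changes of the 10 genes was not tested.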

How the data were processed

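RNA-seq and ATAC-seq gave 18 libraries each, 2 for each of 9 groups. For RNA, the authors aligned reads with TopHat2 (mm10, GENCODE annotation) and deposited a signal per gene, read counts divided by DESeq2 size factors. The counting program is not given in the sources used here. Multiplying back gave whole reads for all values (tolerance 0.01). For ATAC, the authors deposited raw read counts in peaks, made with Trimmomatic, Bowtie2, MACS2 and DiffBind per the labels. Their own tables of fold changes and p-values were not used, except for gene names (26203 genes), and 0 sample columns were left out.

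RNA was tested with limma 3.58.1 (R 4.3.3, trend and robust options, two-sided) on log2(value + 1), for genes with a mean of at least 10, over 7 levels with the 6 controls pooled, so that fold changes are on that scale and understate low genes. ATAC counts were tested with edgeR 4.0.16 (quasi-likelihood, LOESS offsets), and DESeq2 1.42.0 was an alternative. Calls have a Benjamini-Hochberg adjusted p below 0.1 over all features. The steps were run on simulated data with the same spread in every group, which cannot show how calls fare where groups differ in spread. The letters A and B are those of the deposited columns and match no replicate number in the labels, and ATAC letters follow column order. The 10 genes and all lists were chosen with earlier results of these data known. Named genes of a list are those with the largest called change in each direction per comparison, at most 2 each, and Map2 and Cldn5, named among the markers, were chosen after their values were seen.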

Additional observations from a re-analysis of the deposited data

Results flagged for a closer look

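Among the 6 controls, library A of the 10 h controls stood far from the others for Srsf2 (3548 normalised read counts) and for Tra2b (1668). In all 20 sets of 6 controls, 10 for RNA and 10 for peaks, were examined, and chance marks about 1 in 20.

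The change against controls differed between time points of a stimulus, by limma's test of the difference. From 1 to 6 h of BDNF the log2 difference was -0.22 for Clk1, -0.25 for Srsf2, -0.38 for Srsf3, -0.42 for Srsf5, -0.44 for Srsf7, -0.45 for Tra2a and -0.38 for Tra2b. From 1 to 6 h of KCl it was 0.66 for Clk1, 1.14 for Clk2, 0.96 for Clk4, 0.16 for Srsf2, 1.32 for Srsf5, 0.51 for Srsf6, 0.32 for Srsf7, -0.18 for Tra2a and -0.57 for Tra2b. From 6 to 10 h of KCl it was -0.25 for Clk1, -0.31 for Clk2, -0.26 for Srsf3, -0.35 for Srsf6 and -0.22 for Tra2a.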

How the results depend on the processing

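Of 130 RNA comparisons of the 10 genes, 130 stayed called or not called with edgeR or DESeq2 on whole reads. The same held with a pseudocount of 0.5 or 5 and with the replicate block by letter, and called ones kept their direction. Differences between letters A and B correlated between groups at -0.315 to 0.418 (median 0.0649 over 36 pairs, 13 above 0.1). This does not decide whether the letters pair samples in a part of the groups. TMM scaling kept 125. With 1 library left out, 699 results stayed called or not called, 52 lost a call and 9 gained one. No called result reversed in direction. Where a stimulated group was left with n = 1, the spread behind its calls came from the other groups. Uncalled values could change sign, as for Tra2a with KCl at 6 h (from -0.13 to 0.094).

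At an adjusted p below 0.01 the counts of genes became 0 higher with BDNF at 6 h, 0 lower with BDNF at 10 h, 0 higher with KCl at 1 h, 1 lower with KCl at 6 h, 1 higher and 4 lower with BDNF than KCl at 6 h, 1 lower at 10 h, 1 lower from 1 to 6 h of KCl and 0 lower from 6 to 10 h, and all peak counts became 0. Only counts that moved to or from 0 or by a large factor are listed in this section. Smaller losses at that threshold were those of Srsf2 (adjusted p by limma 0.0105) and Tra2a (0.0391) with BDNF at 1 h. Srsf3 with KCl at 1 h (0.0136) and Srsf2 between the stimuli at 1 h (0.0132) were others. From 1 to 6 h of BDNF Clk1 (0.0924) and Srsf2 (0.0197) lost their calls too. With a filter at a mean of 100, 1 gene was higher and 2 lower with BDNF at 10 h. With controls of the same time, 0 were lower with BDNF at 10 h, 0 higher with KCl at 1 h, and 0 peaks were called with BDNF at 6 or 10 h or KCl at 6 h. With no filter, 1 gene fell from 1 to 6 h of KCl and 3 from 6 to 10 h, and without limma's trend and robust options 1 and 2. With counts of near-identical copies added, chosen after seeing the data, 2 were higher with BDNF at 10 h, and 3 were higher with BDNF than KCl at 6 h.

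For peaks, TMM scaling gave 2 closing with BDNF at 1 h, 2 at 10 h, 1 with KCl at 1 h, 0 gained and 1 closing at 6 h, 5 closing at 10 h and 1 lower with BDNF than KCl at 1 h. DESeq2 gave 1, 4, 1, 0 and 1, and 6 for the same BDNF and KCl times, and 0 between stimuli at 10 h. On log2 values limma gave 0 closing with BDNF at 6 h and 1 with KCl at 6 h. The cause was not tested.

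Without single libraries the counts ranged from 0 to 1 higher and 0 to 1 lower with BDNF at 10 h, 0 to 1 higher with BDNF at 6 h, 0 to 2 higher with KCl at 1 h, 1 to 3 lower with KCl at 6 h, 1 to 3 higher with BDNF than KCl at 6 h, 1 to 3 lower at 10 h, 1 to 2 lower from 1 to 6 h of KCl and 1 to 5 from 6 to 10 h. Each peak count at BDNF 6 h, BDNF 10 h, KCl 6 h, KCl 10 h and BDNF against KCl at 10 h ranged from 0 to 1.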
